A study of Mus musculus with 6 samples.

Results

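Mouse chromosome 4 was examined from its first array probe up to the point where epithelial DNA of Tgfbr2fspKO mice falls to very low ratios, near the genes Cdkn2a and Cdkn2b. The stretch comprised the 950 different probes placed at chr4:3377972-88654614 in the mm8 build, over 85.3 Mb. These were 37.9% of the 2507 probes of chromosome 4 and part of 42235 probes placed on chromosomes 1 to 19 and X. The end of the stretch was chosen by epithelial ratios, as the last probe before a run of 4 probes that were low in all 3 epithelial samples. Epithelial values, and differences between epithelia and stroma, are therefore described here without a test. Stromal values were not used in the choice and were tested.

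The data are array-based comparative genomic hybridization (array-CGH) of genomic DNA from laser captured forestomach tissue, hybridized on 6 arrays. Test DNA, labeled with Cy3, came from the epithelia and, separately, from the stroma of 3 Tgfbr2fspKO mice with squamous cell carcinoma, so each mouse supplied 1 array of each tissue. In these mice the FSP1 promoter drives Cre, which deletes the floxed Tgfbr2 gene (the type II TGF-β receptor) in FSP1-positive cells, mainly fibroblasts, and the study describes mice of 5 weeks of age. Reference DNA, labeled with Cy5 on every array, was epithelial DNA of the normal forestomach, taken from Tgfbr2flox/flox mice that carry the same floxed alleles without Cre. Both genotypes were on the C57Bl/6 strain. Epithelia and stroma were separated by morphology, so either capture can hold cells of the other tissue. At the 4 low probes that end the stretch, the mean log2 ratio was -4.42, -3.56 and -3.87 in the epithelia of the 3 mice and 0.18, -0.16 and -0.39 in their stroma. The reference was epithelial also for the stromal arrays, and no dye swap was made. Mice 1 and 2 were hybridized on one slide and mouse 3 on the other, and both tissues of a mouse shared a slide. Values for a tissue are given in the order of mice 1, 2 and 3 throughout.

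Array-CGH compares DNA copy number between 2 samples probe by probe. The value used here is the log2 ratio of test over reference signal minus the median of all probes of that array, so that 0 is the typical level of the genome in that sample. A gain of 1 copy in every cell of a diploid sample would give 0.58 and a loss of 1 copy -1, and smaller shifts arise when some of the cells carry the change. In the listed gene order of the GRCm38 assembly, 494 of the 1328 protein-coding genes of chromosome 4 come before Mtap, the gene next to Cdkn2a. Among them are Lyn, a Src family kinase, Mos, a kinase of oocyte meiosis, and Plag1, a zinc finger transcription factor. Further along come Pax5, the B cell regulator, Tgfbr1, the type I TGF-β receptor, and Klf4, an epithelial transcription factor. Ptprd, a receptor tyrosine phosphatase, Nfib, a nuclear factor I gene, and Mllt3 lie toward the end of the list, with 22 Mup genes for major urinary proteins and 13 Ifna interferon genes. The files give probe positions without genes, and the gene list is of another build, so no probe was assigned to a gene. Levels are therefore given by position.

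Most probes of the stretch gave clear signal, but 1 array was much noisier than the others. Among the 950 probes, 945 to 950 were measured per array, none was saturated, and 712 (74.9%) stood well above background in test and reference signal on every array, against 70.8% of all probes. The spread between neighboring probes, given as a standard deviation, was 0.46, 0.92 and 0.42 on the epithelial arrays and 0.54, 0.38 and 0.43 on the stromal ones. On the epithelial array of mouse 2 this spread exceeded the 0.58 of a full single-copy gain, and results that rest on it are given with and without it. Probes were sparse here, with a median distance of 29438 bp between neighbors against 21827 bp on the whole array, and the largest gap spanned 3052976 bp.

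Taken as a whole, the stretch lay close to the genome's typical level in both tissues. Its mean log2 ratio was 0.091, -0.012 and 0.052 in the 3 epithelia, or 0.044 ± 0.052 (SD, n = 3). In stroma it was 0.036, 0.0012 and -0.048, or -0.0037 ± 0.042 (SD, n = 3). The stromal mean did not pass a test against 0 (exact two-sided sign-flip permutation test, p = 1), and with 3 mice this test cannot go below 0.25. Epithelial minus stromal values within each mouse were 0.055, -0.013 and 0.10, so mouse 2 went against the other two. The epithelial mean was 0.020 ± 0.045 without mouse 1, 0.071 ± 0.028 without mouse 2 and 0.040 ± 0.072 without mouse 3. It was 0.024 ± 0.061 with normexp background correction and 0.025 ± 0.073 as a median over probes, so its size depended on these choices.

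The contrast with the rest of chromosome 4 differed by mouse. In the epithelia the stretch exceeded the 1553 probes beyond the 4 low probes by 0.31 in mouse 1 and 0.27 in mouse 3, and was lower by a value of -0.11 in mouse 2. In mice 1 and 3 the probes beyond averaged -0.22 each, and in mouse 2 they averaged 0.094. In stroma the same differences were 0.069, 0.093 and -0.085, which did not pass the test (exact sign-flip permutation test, p = 0.75). Among 20 units, namely the other 18 autosomes and both parts of chromosome 4, the stretch ranked 4, 12 and 6 from the highest in epithelia. In stroma it ranked 10, 5 and 19, with no common place across mice.

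The near-zero mean hid a pattern of 4 pieces in the epithelia, low, high, low and high in order of position. The mean epithelial profile was divided by a least squares fit of constant levels, which placed 3 changes inside the stretch. Only 1 change was found without mouse 1, without mouse 3 or with double the penalty, and the second was not found among probes well above background on every array. Piece 1, chr4:3377972-14659256 with 118 probes, was low, with -0.15, -0.32 and -0.27 in epithelia. Piece 2, chr4:14696883-44439915 with 328 probes, was higher, with 0.17, 0.082 and 0.12. In mouse 2 this piece was not level, since its window at chr4:24496771-33099628 read -0.21 and that at chr4:41312003-43448269 read 0.23. Piece 3, chr4:44602604-62033581 with 279 probes, was slightly low, with -0.046, -0.15 and -0.047. Mouse 2 was not level here either, since its window at chr4:44775467-46268922 read 0.098 and that at chr4:48682259-53486825 read -0.52. Piece 4, chr4:62093559-88654614 with 225 probes, was the highest, with 0.27, 0.19 and 0.25. The mean of each piece thus had the same sign in all 3 epithelia, but these arrays also placed the boundaries.

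On average over mice, stromal values of the same 4 pieces lay nearer to 0. Piece 1 read -0.0053, -0.041 and -0.14 in stroma, and piece 3 read -0.052, -0.021 and -0.084. Piece 4 read 0.089, 0.034 and 0.012, all above 0. Piece 2 read 0.089, 0.013 and -0.026 and did not share a sign. Pieces 1, 3 and 4 had 1 sign in all 3 stromal samples, yet the exact sign-flip permutation test gave p = 0.25 for each, its smallest possible value, and p = 0.75 for piece 2. Stromal samples did not place the boundaries, but their arrays carry the same kind of reference DNA as the epithelial arrays, so both tissues' values are set side by side with nothing read from a shared sign. At the first change the step was 0.32, 0.40 and 0.39 in epithelia and 0.094, 0.054 and 0.11 in stroma. At the second it was -0.22, -0.23 and -0.16 in epithelia and -0.14, -0.034 and -0.058 in stroma. At the third it was 0.31, 0.34 and 0.30 in epithelia and 0.14, 0.054 and 0.10 in stroma. The positions were fitted to the epithelial mean, which favors large epithelial steps, so the sizes of the 2 tissues are not compared.

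**Figure D1:**
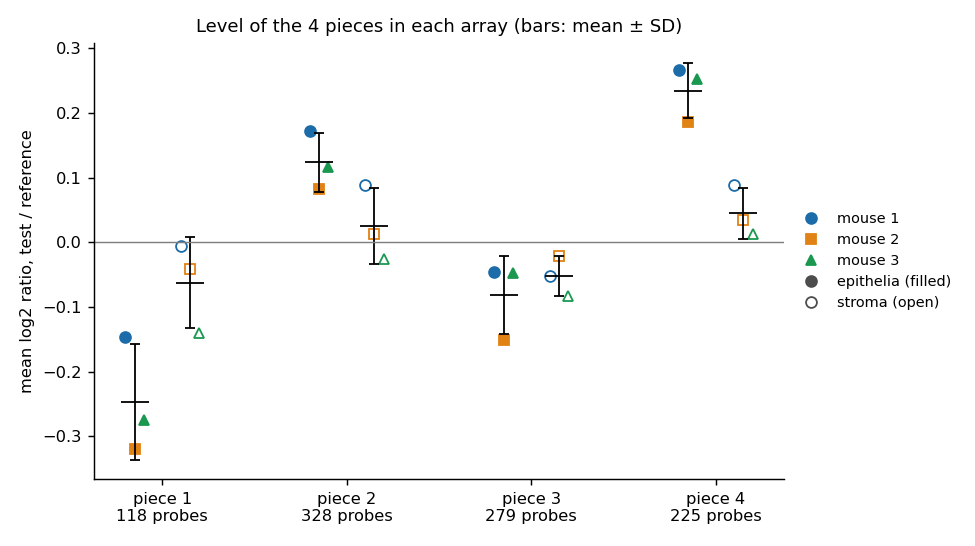
Mean log2 ratio of test over reference (vertical axis) in the 4 pieces of proximal chromosome 4 (horizontal axis), 1 point per array, with filled points for epithelia, open points for stroma and bars for mean ± SD over 3 mice. Epithelial means run from -0.25 in piece 1 to 0.23 in piece 4, and stromal means stay between -0.062 and 0.045.

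Epithelia and stroma were farthest apart in the outer pieces. The pieces were placed by the epithelial mean, which favors epithelial values far from those of stroma. The differences and the lack of overlap below are therefore described only, with nothing read from them. In piece 4 the epithelial mean was 0.23 ± 0.043 (SD, n = 3), a ratio of 1.18, and the stromal mean 0.045 ± 0.040, a ratio of 1.03. The difference within each mouse was 0.18, 0.15 and 0.24, and every epithelial sample lay above every stromal sample. In piece 1 the epithelial mean was -0.25 ± 0.089, a ratio of 0.843, and the stromal mean -0.062 ± 0.070. The differences there were -0.14, -0.28 and -0.13, and every epithelial sample lay below every stromal one. The margin was narrow, with -0.147 in the epithelia of mouse 1 and -0.140 in the stroma of mouse 3. With the boundaries of the epithelia of mice 2 and 3, these samples overlapped, at -0.124 and -0.147. In piece 3 the within-mouse differences were 0.0059, -0.13 and 0.036, with no common sign. The share of probes above 0 was also read. In piece 4, 69.3%, 56.9% and 73.8% of probes were above 0 in epithelia, and 56.0%, 58.2% and 53.6% in stroma. In mouse 2 this share was thus no larger in epithelia than in stroma, although the epithelial mean was the higher. In piece 1, 38.1%, 33.9% and 22.9% were above 0 in epithelia and 45.8%, 46.6% and 35.0% in stroma.

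Each channel's mean log2 signal in a piece was taken relative to that channel's median over all probes, and it can be compared between arrays for 1 piece, since the probes are the same. In piece 4 the reference channel read 0.16 to 0.23 over all 6 arrays. The test channel there read 0.48, 0.36 and 0.44 in epithelia and 0.29, 0.27 and 0.19 in stroma. In piece 1 the reference read 0.25 to 0.29, and the test channel read 0.10, -0.080 and -0.0031 in epithelia against 0.22, 0.25 and 0.14 in stroma. In both pieces the test signals of the 2 tissues did not overlap, while the reference signals of epithelial and stromal arrays did. The pieces were placed by epithelial ratios, which hold the epithelial test signal, so nothing is read from this separation.

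**Figure D2:**
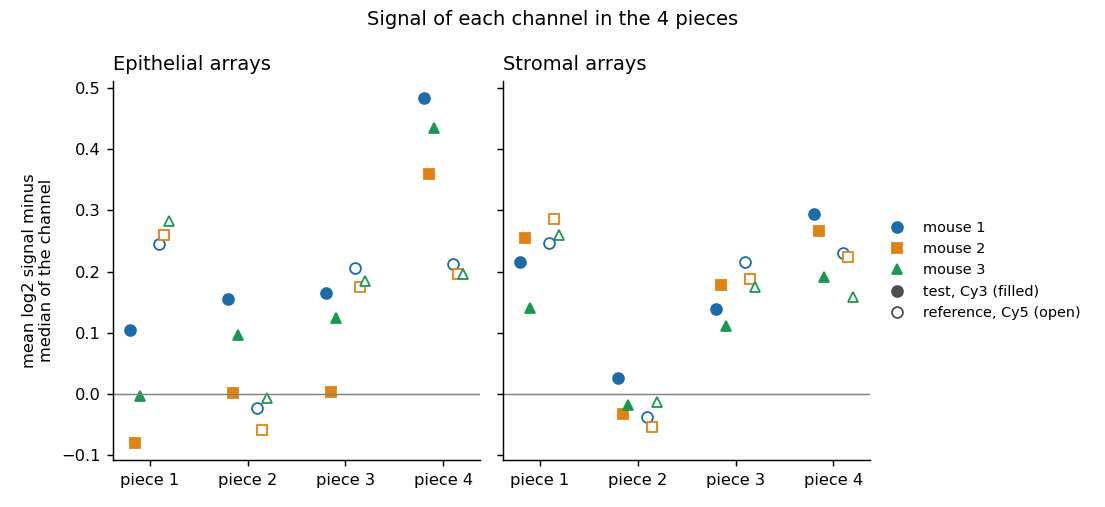
Mean log2 signal of the test channel (filled, Cy3) and the reference channel (open, Cy5) minus the channel's median over all probes, for the 4 pieces, with epithelial arrays on the left and stromal arrays on the right. Points are to be compared between arrays within a piece; in piece 4 epithelial test signal reads 0.36 to 0.48 and stromal test signal 0.19 to 0.29.

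Each array was next divided alone. The epithelia of mice 1 and 3, on different slides, each gave 3 changes in the stretch besides the one into the low run. In mouse 1 new levels began at chr4 positions 14431999, 41034044 and 63330145, with piece means of -0.17, 0.30, -0.056 and 0.35. In mouse 3 they began at 14801398, 32422478 and 62187750, with means of -0.26, 0.26, -0.0094 and 0.26. The first change and the third change of the 2 mice therefore lay close together, and the second lay several megabases apart. A 10-probe low piece then began at 88637282 in mouse 1 and 88654555 in mouse 3, because a piece had to hold at least 10 probes and took ordinary probes beside the 4 low ones. Inside the stretch there were 4 changes in each of these arrays, or 4.21 per 1000 probes, against 7 (0.183 per 1000) and 6 (0.157 per 1000) on the 18 other autosomes. The choice of an end beside a low run fixed 1 change of each 4.

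Mouse 2 did not place these changes by itself. Its epithelial array gave no change in the stretch, and its first on chromosome 4 began at 122497173, while it gave 28 on the other autosomes. It also gave no change at the 4 low probes, which averaged -3.56 on this array, with pieces of at least 10 probes. With pieces of at least 5 probes and the same penalty, this array gave a change into the low run at 88654555. The mean after that change was -2.97. The penalty rises with the noise of an array, so the lack of changes does not show an even level. The 3 stromal arrays gave no change in the stretch either, with their first changes on chromosome 4 at 116629526, 116312492 and 126729643. With the penalty for a change set to 50% of its value, the stroma of mouse 1 gave 3 changes, beginning at 14696883, 32323265 and 63317823. The first of these was the position found in the epithelial mean. The other 2 lay beside changes found in the epithelia of mouse 3 and mouse 1. At the lower penalty the stroma of mouse 2 gave 2 changes, at 23024279 and 26436682, and the stroma of mouse 3 gave none. The epithelia of mouse 2 gave 40364369, 46026614 and 59074086, of which the first lay near the second change of mouse 1. These matches were picked from different profiles after the positions were seen, and nothing is read from them. Already at the full penalty, the stroma of mouse 1 gave 31 changes on the other autosomes. Changes there were not counted at the lower penalty.

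The boundaries were then set by mice 1 and 3 alone, leaving the epithelia of mouse 2 out of the placing of these 3 changes, though not of the end of the stretch. New levels began at 14536641, 40394582 and 63071233. Mouse 2 read -0.29, -0.13, 0.055 and 0.13 in the 4 pieces. Mouse 1 read -0.16, 0.31, -0.048 and 0.33 and mouse 3 read -0.28, 0.17, -0.012 and 0.27. Mouse 2 thus was below 0 in piece 1 and above 0 in piece 4 like the others, was the lowest of them in piece 4, and had the opposite sign in pieces 2 and 3.

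**Figure D3:**
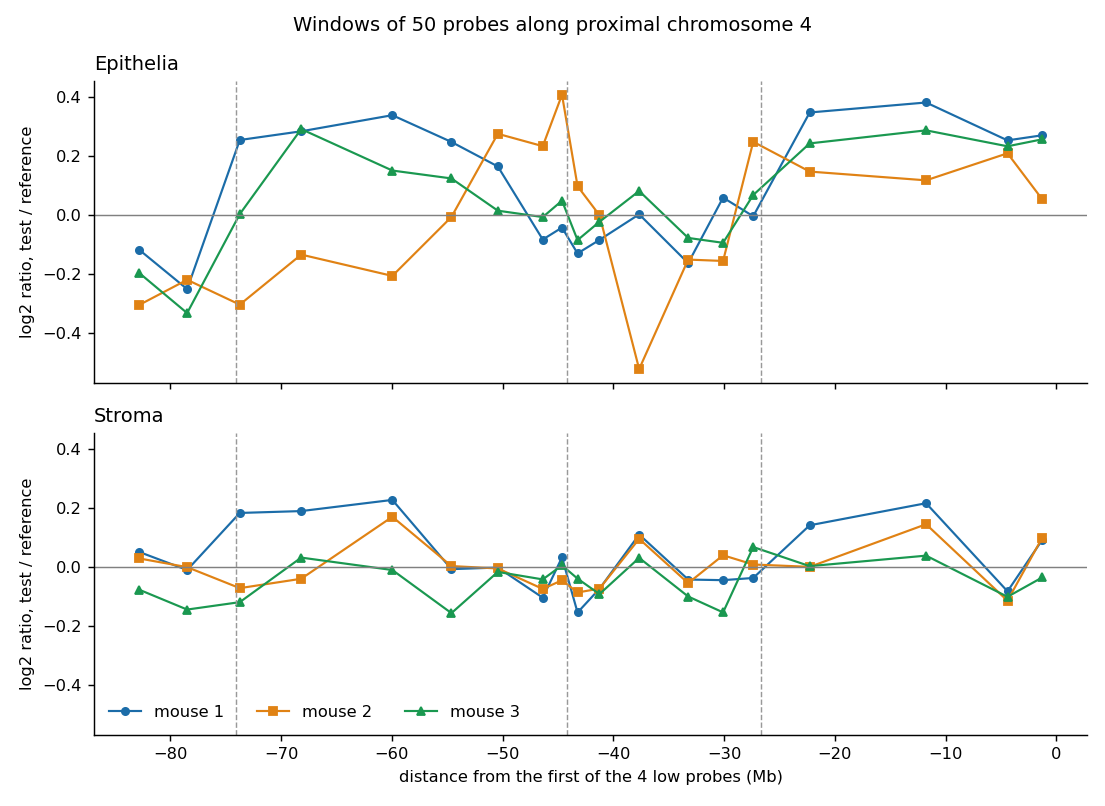
Mean log2 ratio (vertical axis) of 19 windows of 50 probes along proximal chromosome 4 in epithelia (top) and stroma (bottom), against the distance of the window's middle from the first of the 4 low probes in Mb (horizontal axis), with dashed lines at the 3 changes of the mean epithelial profile. Epithelial windows of all 3 mice lie below 0 at the left end and above 0 after the last line, mouse 2 lies apart from mice 1 and 3 after the first line, and the stromal windows stay between -0.16 and 0.23.

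At finer scale the stretch was read in 19 windows of 50 consecutive probes. In the epithelia the lowest windows read -0.25, -0.52 and -0.33 and the highest 0.38, 0.41 and 0.29. In stroma the lowest read -0.15, -0.11 and -0.16 and the highest 0.23, 0.17 and 0.068. The standard deviation over windows was larger here than over the 757 windows of the other autosomes in the epithelia of mouse 1 (0.20 against 0.15) and mouse 3 (0.17 against 0.14). It was smaller in the epithelia of mouse 2 (0.24 against 0.31) and in all 3 stromal samples (0.12 against 0.15, 0.080 against 0.10 and 0.070 against 0.10). The stretch was therefore uneven for its array in 2 epithelia and even for its array elsewhere.

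The lowest epithelial window was the second, chr4:8515898-12022558, with -0.25, -0.22 and -0.33 in epithelia and -0.010, -0.00069 and -0.14 in stroma. The highest was the seventeenth, chr4:71574032-82409700, with 0.38, 0.12 and 0.29 in epithelia. The seventeenth was also the highest window of the stroma, with 0.22, 0.15 and 0.038. The next window, chr4:82440565-86247667, was the lowest of the stroma, with -0.083, -0.11 and -0.10. Epithelia there read 0.25, 0.21 and 0.23, so the difference within each mouse was 0.34, 0.32 and 0.33. This was the largest mean difference of the stretch, at 0.33 ± 0.0066 (SD, n = 3). The window was picked for its size, so the closeness of the 3 mice is not read as precision. The lowest difference was in chr4:48682259-53486825, where epithelia read 0.0020, -0.52 and 0.081 and stroma 0.11, 0.10 and 0.031. The difference within each mouse was -0.11, -0.62 and 0.051, so it was largest in mouse 2, smaller in mouse 1 and of the opposite sign in mouse 3.

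Epithelia lay above stroma without overlap in 3 of the 19 windows, namely the seventh, sixteenth and eighteenth, against 9.19% of all windows. They lay below without overlap in 2, the first and second, against 9.31% of all windows. The end of the stretch was placed by the same epithelial ratios, and nothing is read from these counts. The final window, chr4:86314123-88654614, which borders the low run, read 0.27, 0.053 and 0.26 in epithelia and 0.092, 0.10 and -0.036 in stroma.

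In a joint fit of both tissues, no stromal window or probe of the stretch passed the test across the whole array. This fit gave both tissues 1 spread. Epithelial scatter, including that of the noisy array of mouse 2, thus entered the stromal errors, and the lack of calls does not show an even stroma. With limma on all 838 windows (Benjamini-Hochberg adjusted p under 0.05), 0 of 19 windows were called, against 0% of all windows. The lowest adjusted p in the stretch was 0.931, and 0 of its windows had an unadjusted p under 0.05. With limma on all 42404 probes, 0 of 950 were called, against 0.00472% of all probes. The lowest adjusted p was 0.333, and 105 probes (11.1%) had an unadjusted p under 0.05, close to 11.5% of all probes. When the 3 stromal arrays were fitted alone, 32 probes (3.37%) were called, 12 higher and 20 lower than the reference, close to the 3.24% called over all probes. In that fit 0 of the 19 windows were called, against 4 of all 838. With both tissues but without mouse 2, 0 of the 19 windows were called, against 21 of all 838. The 3 stromal samples are 3 mice set against 1 kind of reference DNA, and a test against 0 leaves out the spread of control mice.

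Window levels moved with the spacing of the probes, in a way that differed by array. Across the 757 windows of the other autosomes, the level correlated with log spacing with r = 0.19, -0.48 and -0.092 on the epithelial arrays. In stroma it was 0.31, 0.44 and -0.36. Over the 19 windows of the stretch, r was 0.54, -0.34 and 0.31 in epithelia and 0.73, 0.49 and 0.29 in stroma. Windows are not independent replicates, and these values describe single arrays. The 4 pieces differed in spacing, with 1 probe per 96.4, 91.0, 62.7 and 119 kb, so piece 3 held the densest probes and piece 4 the sparsest.

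**Figure D4:**
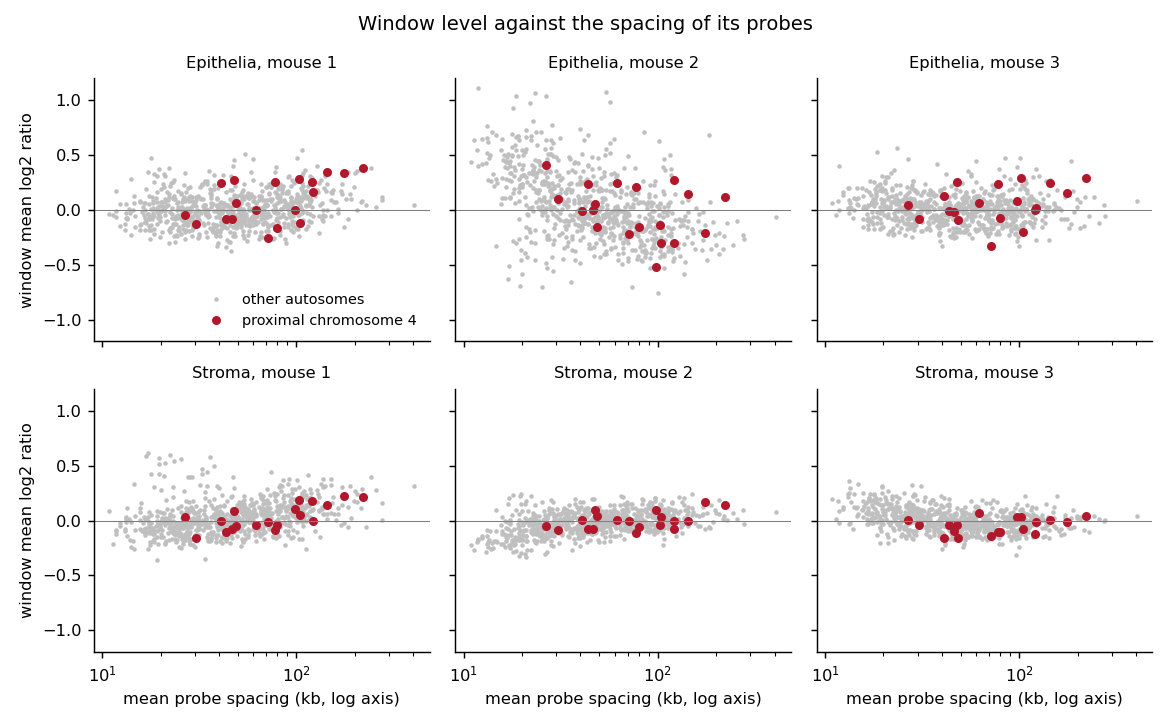
Mean log2 ratio of windows of 50 probes (vertical axis) against the mean distance between their probes in kb (horizontal axis, log scale), for each of the 6 arrays, with grey points for 757 windows of the other autosomes and red points for the 19 windows of proximal chromosome 4. The grey cloud falls with spacing in the epithelia of mouse 2 (r = -0.48) and rises in the stroma of mouse 2 (r = 0.44).

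A straight line of log2 ratio on log spacing was therefore fitted per array on the other autosomes and subtracted, an adjustment chosen after seeing the data. Its slope per 10-fold spacing was 0.12, -0.49 and -0.016 in epithelia and 0.18, 0.14 and -0.10 in stroma. After it, the mean of the stretch was 0.056, 0.045 and 0.043 in epithelia and -0.031, -0.0065 and -0.033 in stroma. The 3 epithelia now lay closer together, at 0.048 ± 0.0068 (SD, n = 3), and all above the 3 stromal samples. On both arrays of mouse 3 the line did not follow the stretch. There r was 0.31 in epithelia and 0.29 in stroma, against -0.092 and -0.36 on the other autosomes.

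After the adjustment the epithelial mean had changes at the same 3 positions. Piece 4 read 0.22, 0.29 and 0.24 in epithelia and 0.0053, 0.012 and 0.036 in stroma. With the boundaries of mice 1 and 3, piece 4 read 0.27, 0.27 and 0.26 in epithelia and 0.0096, 0.016 and 0.0089 in stroma. Before the adjustment mouse 2 had read 0.13 in that piece against 0.33 and 0.27. Its spacing slope was the steepest of the 6 arrays, and whether spacing set its level in this piece was not tested. Piece 1 read -0.21, -0.19 and -0.28 with those boundaries, and stroma -0.082, -0.049 and -0.11. Piece 2 still differed, with 0.26 and 0.16 in mice 1 and 3 and 0.010 in mouse 2. Piece 3 read -0.062 and -0.023 in mice 1 and 3 and 0.025 in mouse 2, which again had the opposite sign.

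Few single probes stood out in the stretch, but those above 1 in all 3 epithelia were a larger share than on the other autosomes, a difference that was not tested. No probe was above 2 or below -2 on all 3 arrays of either tissue. All 3 epithelia exceeded 1 at 3 probes (0.316%), against 22 (0.0577%) on the other autosomes, and these 3 are named because there were so few. At chr4:3501440-3501499 epithelia read 1.56, 1.22 and 1.13 and stroma 0.82, -0.71 and 0.83. At chr4:46136053-46136112 epithelia read 1.01, 1.52 and 1.08 and stroma -0.22, 0.81 and 0.73. At chr4:85470190-85470249 epithelia read 1.15, 1.08 and 1.08 and stroma 0.18, -0.99 and 0.13. The stromal samples of 1 mouse were far from the other 2 at each of these probes. At the first probe the reference signal was not well above background on the epithelial array of mouse 1, where it read 1.56. The reference signal of the last probe was not well above background on 5 of the 6 arrays. That probe lay inside the window with the largest difference between tissues. No probe was below -1 in all 3 epithelia, and none was beyond 1 in either direction in all 3 stromal samples.

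The change at the end of the stretch was abrupt. The last probe inside, chr4:88654555-88654614, read 0.18, -0.61 and -0.36 in epithelia and -0.40, -0.17 and -0.70 in stroma. The first probe outside, chr4:88759685-88759744, read -4.42, -3.67 and -4.01 in epithelia and -0.46, -0.24 and -0.56 in stroma. The 4 probes before the last inside ranged from -1.39 to 0.83 in epithelia, with the lowest value in mouse 2. The end of the stretch was chosen at this drop, so its place between 2 neighboring probes in all 3 epithelia followed from the choice. Stroma, which was not used in the choice, showed no such drop there. Beyond the 4 low probes, the first probe at chr4:89184415-89184474 read -0.32, -0.53 and 0.27 in epithelia, within the range seen before the run. The piece before the run was thus the highest of the stretch in the epithelial mean. From the run to the end of the chromosome the level averaged -0.11 over the 3 epithelia. It was -0.22, 0.094 and -0.22 in mice 1, 2 and 3, and -0.22 without mouse 2.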

How the data were processed

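Log2 ratios were made by the authors' scanner software: the deposited files hold Agilent Feature Extraction 10.7.1.1 output with background-subtracted, dye-normalized signal intensity per spot and channel, and mm8 probe positions. The authors' series table holds the same log10 ratios of Cy5 over Cy3 as deposited. Here log2 of Cy3 over Cy5 processed intensity was taken, outlier spots left out, spots averaged per probe, and each array centered on its median. Change points were found by penalized least squares (penalty 4 × log of the number of probes × variance, pieces of at least 10 probes). Stroma was tested against 0 with limma 3.58.1 in R 4.3.3 on all windows or probes, with both tissues sharing 1 spread, and with exact sign-flip permutation tests. No probe was named by gene. Named positions were the changes, extreme windows, probes beyond 2 on all arrays of a tissue (there were none) and those beside the low run; 3 probes above 1 in all epithelia were added after their values were seen. Members and lists were chosen with earlier results of these data known. Both tissues of a number come from 1 animal per the labels; deviations of the 2 tissues correlated with r = 0.0776, -0.0232 and 0.1035 over 42187 probes. Alternatives included normexp (offset 50), which used median spot signals. Precision is limited by 3 mice.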

Additional observations from a re-analysis of the deposited data

Results flagged for a closer look

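In 2 windows of proximal chromosome 4 every epithelial sample was above 0 and every stromal sample below 0, a difference that was not tested. In the window at chr4:82440565-86247667 the epithelial minus stromal difference averaged 0.33, with epithelia between 0.21 and 0.25 and stroma between -0.11 and -0.083. In the window at chr4:35341427-41303158 it averaged 0.16, with 0.16, 0.28 and 0.014 in epithelia (mice 1, 2 and 3) and -0.0020, -0.0052 and -0.017 in stroma. The same arrangement was found in 2.38% of the 757 windows of the other autosomes.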

How the results depend on the processing

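The number of changes in the mean epithelial profile depended on the mice, the penalty and the shortest piece allowed. It was 3 in the main setting, 1 with double the penalty, 4 with pieces of at least 5 or of at least 20 probes, where a change at 88654555 into the low run was added, and 1 to 3 when each mouse was left out in turn. Without mouse 1 the change at 14801398 was found, without mouse 3 the one at 61987619, and without mouse 2 all 3, at 14536641, 40394582 and 63071233. With probes well above background alone, the second change was not found and one at 88637282 took its place. The epithelial mean of piece 4 ranged from 0.17 with normexp to 0.26 over 11 settings, and that of piece 1 from -0.30 to -0.20, with no change of sign. With the stromal arrays fitted alone, 32 stromal probes were called; with mouse as a replicate block, 0 probes and 0 windows of the stretch were called, with a lowest adjusted p of 0.331 and 0.956 in limma. No other setting of limma called a stromal window or probe of the stretch. With 3 mice no exact test could pass 0.05, and the noise of the epithelial array of mouse 2 limits what it can show by itself.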
